A study of Mus musculus with 18 samples.

Results

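The genes described here encode receptors and bridging factors for scavenging and the uptake of dying cells, followed as transcripts in synovial macrophages. They are the scavenger receptors *Msr1*, *Marco*, *Cd36*, *Cd163*, *Mrc1* and *Stab1*, the receptor tyrosine kinases *Mertk* and *Axl*, and the bridging ligands *Gas6* and *Pros1*. They were taken by symbol from the count tables, 10 of 24421 gene symbols listed, and all 10 passed the filter on low counts. The macrophages were sorted from the synovium of adult C57BL/6 mice, and their RNA was sequenced in bulk. The question was how a systemic immune challenge acts on the macrophage subsets of the joint lining and its interstitium. The subsets were LYVE1+CX3CR1+ macrophages (titled *Lyve1*), which the study describes as MHCII-, MHCII+CD11c- macrophages (titled IAIE) and MHCII+CD11c+ macrophages (titled CD11c). Each subset had 3 libraries from untreated mice, labelled Healthy and Control, and 3 from mice killed 8 h after an intravenous injection of immune complexes (IC), preformed antibody bound to its antigen, which makes 18 libraries in 6 groups. The labels give the genotype C57BL/6 for every group and name no transgene or deleted allele. For untreated libraries the study's legend gives 3 mice a point, read here as cells of 3 mice pooled in a library, and for libraries with IC the number is not given in the sources used here. The p-values below therefore measure the spread between libraries.

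Macrophages take up modified lipoproteins, glycoproteins, microbes and dying cells through receptors of several unrelated families. Class A scavenger receptors (*Msr1*, *Marco*) and the class B receptor *Cd36* bind polyanionic or oxidized ligands, *Cd163* clears haemoglobin bound to haptoglobin, the mannose receptor *Mrc1* clears sulphated and mannosylated glycoproteins, and *Stab1* takes up extracellular matrix fragments and SPARC. *Mertk* recognises apoptotic cells indirectly, through *Gas6* or protein S (*Pros1*), and *Axl* does so through *Gas6*. Both ligands bind exposed phosphatidylserine with their vitamin K-dependent domain, and tissue-resident macrophages commonly carry *Mertk*.

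RefSeq windows of GRCm38.p6, from 250 bases before to 50 bases after a transcription start, were at hand for 9 of the 10 genes, all but *Msr1*. The windows of *Stab1* and *Gas6* are printed because the levels of these genes ran most closely together, and those of *Mrc1* and *Marco* because these scavenger receptors had the opposite subset order or had nearly all their counts with IC. Capitals mark GAGGAA, the core of sites for the myeloid factor PU.1, or its reverse complement, and all windows are written 5′ to 3′ along the gene.
Stab1, chr14:31168592-31168891, minus strand: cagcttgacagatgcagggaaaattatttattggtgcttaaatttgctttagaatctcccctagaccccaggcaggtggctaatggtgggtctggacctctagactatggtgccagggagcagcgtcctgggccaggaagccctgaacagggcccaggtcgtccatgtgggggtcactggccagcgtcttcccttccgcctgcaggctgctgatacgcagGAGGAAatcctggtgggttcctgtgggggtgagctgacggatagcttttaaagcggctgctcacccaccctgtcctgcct
Gas6, chr8:13494486-13494785, minus strand: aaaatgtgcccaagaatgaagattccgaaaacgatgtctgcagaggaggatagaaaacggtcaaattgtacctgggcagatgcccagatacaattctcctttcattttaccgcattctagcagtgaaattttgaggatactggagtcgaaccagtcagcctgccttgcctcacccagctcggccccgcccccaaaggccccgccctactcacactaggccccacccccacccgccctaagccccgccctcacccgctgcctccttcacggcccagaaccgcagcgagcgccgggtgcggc
Mrc1, chr2:14229164-14229463, plus strand: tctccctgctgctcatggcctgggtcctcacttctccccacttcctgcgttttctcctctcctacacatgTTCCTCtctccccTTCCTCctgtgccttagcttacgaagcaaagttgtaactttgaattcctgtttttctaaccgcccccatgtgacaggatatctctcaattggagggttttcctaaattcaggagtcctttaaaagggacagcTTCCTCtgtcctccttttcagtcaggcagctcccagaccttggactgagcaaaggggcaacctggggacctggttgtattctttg
Marco, chr1:120504975-120505274, minus strand: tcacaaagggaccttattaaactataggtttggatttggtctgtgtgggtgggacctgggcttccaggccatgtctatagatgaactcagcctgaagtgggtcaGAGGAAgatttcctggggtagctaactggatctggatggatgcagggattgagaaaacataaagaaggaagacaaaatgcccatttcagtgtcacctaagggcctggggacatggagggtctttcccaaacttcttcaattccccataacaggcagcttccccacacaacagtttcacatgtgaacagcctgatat
GAGGAA occurred on either strand in 4 of the 9 windows (*Axl*, *Marco*, *Mrc1* and *Stab1*), against 28.3% of the 32851 windows of all genes in the table. *Mrc1* had 3 matches, at 180, 167 and 35 bases before the start, and *Stab1*, *Marco* and *Axl* had 1 each, at 30, 146 and 130 bases. TGCTGA, the core of the element bound by MAF factors, was present in *Cd36* and *Stab1* and in 19.5% of all windows, and AGGTCA, the core bound by nuclear receptors, in *Cd36* and in 16.3% of all windows. The AP-1 site TGANTCA, the E-box CACGTG, the interferon-stimulated response element core and the TATA box TATAAA, searched on both strands, matched none of the 9 windows and 7.81%, 7.15%, 3.44% and 13.6% of all windows. No match overlapped a match of another motif. Base composition differed widely among the members, from no CpG in *Marco*, 2 in *Cd163* and 3 in *Mrc1* and *Cd36* to 14 in *Mertk*, 17 in *Gas6* and 21 in *Pros1*, against a median of 7 over all windows. A match describes the letters of a window and is not a bound site.

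Library totals lay between 837439 and 2172358 counts without treatment and between 245903 and 2047260 with IC, and the first and second MHCII+CD11c- libraries with IC were the shallowest, at 381217 and 245903. Without treatment, transcripts of the sorted proteins stood where the labels put them. *Itgax*, which encodes CD11c, was at 269 ± 32.1 CPM (counts over library totals scaled with edgeR's TMM factors) in untreated MHCII+CD11c+ macrophages and at no more than 13.3 CPM in any other untreated library, and *Lyve1* was at 2372 ± 197 CPM in untreated LYVE1+CX3CR1+ and 796 ± 90.0 in MHCII+CD11c- macrophages (mean ± SD, n = 3). With IC, *Itgax* was at 70.6, 33.9 and 31.0 CPM in MHCII+CD11c- and 383, 273 and 357 in MHCII+CD11c+ libraries, and *Lyve1* at 1841, 516 and 2290.3 in MHCII+CD11c-, 1001, 1054 and 1232 in MHCII+CD11c+ and 3219, 3172 and 3555 in LYVE1+CX3CR1+ libraries. All 10 macrophage markers had counts in every group. Their summed level was 20164 to 21236 CPM in untreated LYVE1+CX3CR1+, 16680 to 17854 in MHCII+CD11c- and 12765 to 13570 in MHCII+CD11c+ libraries, and in LYVE1+CX3CR1+ macrophages 2 of the 10 were called higher than in MHCII+CD11c- and 7 higher than in MHCII+CD11c+ macrophages, with none lower. The summed level of 11 neutrophil markers was 18.9 to 24.8 CPM in untreated LYVE1+CX3CR1+, 979 to 2271 in MHCII+CD11c- and 129.5 to 741 in MHCII+CD11c+ macrophages, and 19.2 to 201, 1702 to 5120 and 1266 to 2811 CPM with IC. The summed level of 14 fibroblast markers was 676 CPM in the first untreated LYVE1+CX3CR1+ library and at most 218 in the others. All 11 neutrophil markers were called lower in untreated LYVE1+CX3CR1+ than in MHCII+CD11c- macrophages and 9 of 11 lower than in MHCII+CD11c+ macrophages, and *Camp*, *Lcn2*, *Ltf*, *Ngp* and *S100a8* had no count in untreated LYVE1+CX3CR1+ libraries. The summed level of 9 dendritic cell markers was 2.64 to 15.6 CPM in LYVE1+CX3CR1+, 81.1 to 177 in MHCII+CD11c- and 224 to 514 in MHCII+CD11c+ libraries, and that of 5 B cell markers at most 2.11, 204 to 354 and 62.5 to 94.5 CPM. What these cells and the differences in macrophage markers contribute to the levels of the uptake genes was not tested. In bulk RNA, fewer cells of a type and less RNA per cell cannot be told apart.

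Per kilobase of the longest coding transcript, the untreated subsets had different uptake genes at the highest mean. In LYVE1+CX3CR1+ macrophages this was *Gas6* (319 ± 35.5 CPM per kb), then *Cd36* (270.4 ± 14.7), *Stab1* (229 ± 29.2), *Mrc1* (225 ± 23.5) and *Cd163* (168 ± 51.7). In MHCII+CD11c- macrophages *Mrc1* was at 351 ± 77.8 CPM per kb and *Cd163* at 268 ± 90.5, and in MHCII+CD11c+ macrophages they were at 325 ± 34.2 and 218 ± 82.2, the highest means in both. *Pros1*, *Axl*, *Msr1* and *Mertk* lay between 11.9 and 72.7 CPM per kb in the untreated groups, and *Marco* at or near 0. Intervals of 1 SD overlapped between each of *Gas6*, *Cd36*, *Stab1*, *Mrc1* and *Cd163* and the next of them in LYVE1+CX3CR1+ macrophages, and between *Mrc1* and *Cd163* in both MHCII+ subsets. The genes were measured in the same libraries, so this overlap does not decide their order within a library. That order was not tested.

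**Figure D1:**
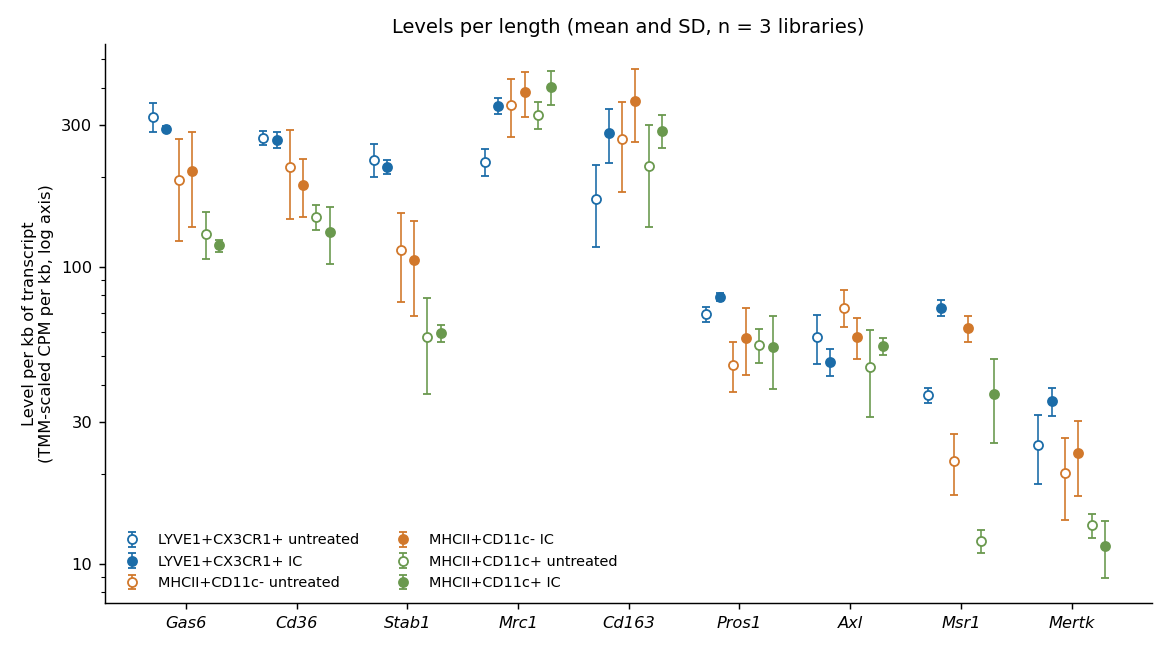
Level of 9 uptake genes per kilobase of the longest coding transcript (TMM-scaled CPM per kb, log axis), mean and SD over 3 libraries for each of the 6 groups, open symbols without treatment and filled symbols with IC; *Marco* is left out because its mean is 0 in 2 groups. *Gas6*, *Cd36*, *Mrc1* and *Cd163* lie above *Pros1*, *Axl*, *Msr1* and *Mertk* in every group, *Stab1* drops from 229 in untreated LYVE1+CX3CR1+ to 57.8 in untreated MHCII+CD11c+ macrophages, and *Msr1* is higher with IC in every subset.

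Without treatment, LYVE1+CX3CR1+ macrophages had more transcript of *Stab1*, *Msr1* and *Gas6* than either MHCII+ subset and less of *Mrc1*, the macrophage mannose receptor. The differences were up to 3.96-fold. Against MHCII+CD11c- macrophages, the quasi-likelihood test of edgeR (p-values adjusted by Benjamini-Hochberg over the 10550 genes tested, threshold 0.05) called 3 of the 10 members higher (*Stab1*, *Msr1*, *Gas6*) and 1 lower (*Mrc1*), where 4.32% of all genes tested were called higher and 7.12% lower. Against MHCII+CD11c+ macrophages it called 5 higher (*Stab1*, *Msr1*, *Gas6*, *Mertk*, *Cd36*) and 1 lower (*Mrc1*), where 9.48% of all genes were higher and 12.4% lower. Between the MHCII+ subsets, *Msr1* and *Stab1* were lower in MHCII+CD11c+ macrophages and no member was higher, where 1.6% of all genes were lower and 1.89% higher. The median log2 fold change of the 10 members was 0.32, 0.61 and -0.57 in these 3 comparisons, and that of all genes tested between -0.02 and -0.01. *Marco*, with at most 1 count in any untreated library, is counted in these medians.

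**Figure D2:**
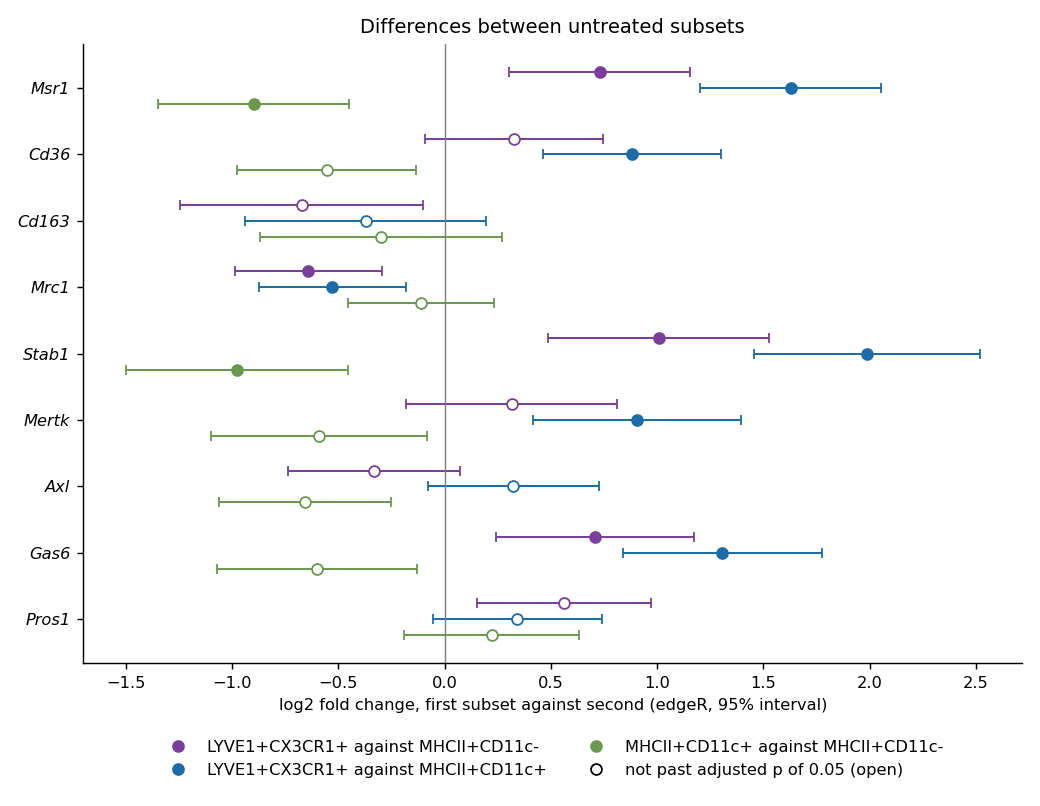
Log2 fold changes between untreated subsets for 9 uptake genes from edgeR, with 95% intervals; filled points passed an adjusted p of 0.05 over all genes tested and open points did not. *Stab1*, *Msr1* and *Gas6* lie to the right of 0 in both comparisons of LYVE1+CX3CR1+ macrophages and *Mrc1* lies to the left in both.

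*Msr1* (chromosome 8, 39581685 to 39642673, minus strand), a trimeric receptor for modified lipoproteins, stood at 125, 137 and 139 CPM in the untreated LYVE1+CX3CR1+ libraries, 61.6, 99.0 and 81.7 in the MHCII+CD11c- and 46.2, 44.7 and 39.1 in the MHCII+CD11c+ libraries. The 3 groups did not overlap, and the subsets ranked LYVE1+CX3CR1+, MHCII+CD11c-, MHCII+CD11c+. The log2 fold change was 1.63 (SE 0.21, edgeR adjusted p = 1.36e-06) in LYVE1+CX3CR1+ against MHCII+CD11c+ macrophages, kept in all 6 fits that left out a library of the compared groups. Against MHCII+CD11c- macrophages it was 0.73 (SE 0.21, edgeR adjusted p = 0.0200), lost without untreated MHCII+CD11c- replicate 1 (0.120), untreated LYVE1+CX3CR1+ replicate 2 (0.0557), untreated MHCII+CD11c- replicate 3 (0.0501) and untreated LYVE1+CX3CR1+ replicate 3 (0.0647) (adjusted p without each library in parentheses, here and below, with replicate numbers as the labels give them). Between the MHCII+ subsets it was -0.90 (SE 0.22, edgeR adjusted p = 0.0178), lost without untreated MHCII+CD11c- replicate 2 (0.133), untreated MHCII+CD11c+ replicate 2 (0.0575), untreated MHCII+CD11c- replicate 3 (0.0663) and untreated MHCII+CD11c+ replicate 3 (0.104), and with 1 surrogate variable from sva (0.108).

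*Stab1* (chromosome 14, 31139013 to 31168641, minus strand), an endocytic receptor of the stabilin family, had the largest difference between untreated subsets among the called members. Its levels were 2078, 1615 and 1797 CPM in untreated LYVE1+CX3CR1+, 560.4, 1110.0 and 1060.4 in MHCII+CD11c- and 274, 529 and 583 in MHCII+CD11c+ libraries. Each LYVE1+CX3CR1+ library lay above every MHCII+ library, while the lowest MHCII+CD11c- library, the first, lay within the range of the MHCII+CD11c+ ones. LYVE1+CX3CR1+ macrophages were higher than MHCII+CD11c+ macrophages by 1.99 (SE 0.26, edgeR adjusted p = 1.80e-06) on the log2 scale, kept in all 6 fits leaving out a library. They were higher than MHCII+CD11c- macrophages by 1.01 (SE 0.25, edgeR adjusted p = 0.00828), lost without untreated MHCII+CD11c- replicate 1 (0.0687). MHCII+CD11c+ against MHCII+CD11c- macrophages gave -0.98 (SE 0.25, edgeR adjusted p = 0.0285), lost without untreated MHCII+CD11c+ replicate 1 (0.165), untreated MHCII+CD11c- replicate 2 (0.154), untreated MHCII+CD11c+ replicate 2 (0.0537) and untreated MHCII+CD11c- replicate 3 (0.145), and in a fit to only these libraries (0.0516).

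*Mrc1* (chromosome 2, 14229392 to 14332057, plus strand) ran the other way. It stood at 1065, 1261 and 1302 CPM in untreated LYVE1+CX3CR1+, 1418, 2222 and 2019.6 in MHCII+CD11c- and 1593, 1949.9 and 1694 in MHCII+CD11c+ libraries. Every MHCII+ library was above every LYVE1+CX3CR1+ library, and the MHCII+ subsets overlapped. The log2 fold change of LYVE1+CX3CR1+ macrophages was -0.64 (SE 0.17, edgeR adjusted p = 0.0113) against MHCII+CD11c-, lost without untreated LYVE1+CX3CR1+ replicate 1 (0.0818), untreated MHCII+CD11c- replicate 2 (0.0867) and untreated MHCII+CD11c- replicate 3 (0.0603). It was -0.53 (SE 0.17, edgeR adjusted p = 0.0226) against MHCII+CD11c+ macrophages, lost without untreated LYVE1+CX3CR1+ replicate 1 (0.119), untreated MHCII+CD11c+ replicate 2 (0.117) and untreated LYVE1+CX3CR1+ replicate 2 (0.0571). *Cd163* (chromosome 6, 124304656 to 124330527, plus strand), the haemoglobin scavenger receptor, was at 487, 920.2 and 836 CPM in LYVE1+CX3CR1+, 742, 1516 and 1318 in MHCII+CD11c- and 548, 1213 and 1144 in MHCII+CD11c+ libraries. The groups overlapped, the first library was the lowest of each untreated subset, and no comparison passed, with -0.67 (SE 0.28, edgeR adjusted p = 0.132) for LYVE1+CX3CR1+ against MHCII+CD11c- macrophages. That difference passed with no filter on low counts (adjusted p = 0.00449), with the replicate number within treatment as a block (0.0102) and without untreated MHCII+CD11c- replicate 1 (0.0435).

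*Cd36* (chromosome 5, 17781690 to 17888801, minus strand), a class B receptor that also imports fatty acids, was at 918, 869 and 969.7 CPM in untreated LYVE1+CX3CR1+, 462, 930.3 and 809 in MHCII+CD11c- and 477, 554 and 466 in MHCII+CD11c+ libraries. The MHCII+CD11c- libraries overlapped both other subsets, which stood apart. Only the difference of LYVE1+CX3CR1+ from MHCII+CD11c+ macrophages passed, at 0.88 (SE 0.20, edgeR adjusted p = 0.00195), kept in all 6 fits leaving out a library. MHCII+CD11c+ against MHCII+CD11c- macrophages gave -0.56 (SE 0.20, edgeR adjusted p = 0.149), which passed without untreated MHCII+CD11c- replicate 1 (0.0131).

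Among the kinases and ligands, *Gas6* (chromosome 8, 13465374 to 13494490, minus strand) differed most. It stood at 779.7, 915 and 743 CPM in untreated LYVE1+CX3CR1+, 317, 694 and 483 in MHCII+CD11c- and 261, 354 and 371 in MHCII+CD11c+ libraries. All LYVE1+CX3CR1+ libraries were above the MHCII+ ones, and the MHCII+ subsets overlapped. MHCII+CD11c+ against MHCII+CD11c- macrophages gave -0.60 (SE 0.23, edgeR adjusted p = 0.169), which passed with no filter (0.0413) and without untreated MHCII+CD11c- replicate 1 (0.0310). The log2 fold change of LYVE1+CX3CR1+ against MHCII+CD11c+ macrophages was 1.31 (SE 0.23, edgeR adjusted p = 9.67e-05), kept in all 6 fits leaving out a library. Against MHCII+CD11c- macrophages it was 0.71 (SE 0.23, edgeR adjusted p = 0.0420), lost without untreated MHCII+CD11c- replicate 1 (0.242), untreated LYVE1+CX3CR1+ replicate 1 (0.0830), untreated LYVE1+CX3CR1+ replicate 2 (0.150), untreated MHCII+CD11c- replicate 3 (0.111) and untreated LYVE1+CX3CR1+ replicate 3 (0.0639), and with a surrogate variable (0.173). The other ligand, *Pros1* (chromosome 16, 62854307 to 62929346, plus strand), was at 239, 232 and 213 CPM in untreated LYVE1+CX3CR1+, 121, 165 and 177 in MHCII+CD11c- and 175, 206 and 159.6 in MHCII+CD11c+ libraries. The LYVE1+CX3CR1+ libraries were the highest, and none of the 3 comparisons passed. LYVE1+CX3CR1+ against MHCII+CD11c- macrophages gave 0.56 (SE 0.20, edgeR adjusted p = 0.0704), which passed with DESeq2 (0.0381), no filter (0.0411) or only the libraries compared (0.0436).

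*Mertk* (chromosome 2, 128698956 to 128802894, plus strand) stood at 80.2, 107 and 136 CPM in untreated LYVE1+CX3CR1+, 61.6, 115 and 84.8 in MHCII+CD11c- and 56.2, 63.8 and 53.5 in MHCII+CD11c+ libraries. The MHCII+CD11c+ libraries were narrow and low, below every LYVE1+CX3CR1+ library, and MHCII+CD11c- libraries overlapped both other subsets. LYVE1+CX3CR1+ against MHCII+CD11c+ macrophages gave 0.91 (SE 0.24, edgeR adjusted p = 0.00589), lost without untreated LYVE1+CX3CR1+ replicate 3 (0.0599). *Axl* (chromosome 7, 25757273 to 25788705, minus strand), the related kinase, was at 299, 214 and 226 CPM in LYVE1+CX3CR1+, 269.7, 303 and 358 in MHCII+CD11c- and 269.5, 153 and 167 in MHCII+CD11c+ libraries. No comparison of *Axl* passed. LYVE1+CX3CR1+ against MHCII+CD11c+ macrophages gave 0.32 (SE 0.20, edgeR adjusted p = 0.282), which passed without untreated MHCII+CD11c+ replicate 1 (0.0250). MHCII+CD11c+ against MHCII+CD11c- macrophages came nearest, at -0.66 (SE 0.20, edgeR adjusted p = 0.0629), and passed with DESeq2 (0.0235), no filter (0.0355), the replicate number as a block (0.0446), the replicate number within treatment as a block (0.0295) and without untreated MHCII+CD11c+ replicate 1 (0.00721). The mean of *Axl* was highest in MHCII+CD11c- macrophages (310.2 ± 44.3 CPM), where the mean of *Mertk* was highest in LYVE1+CX3CR1+ macrophages (108 ± 28.0 CPM).

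**Figure D3:**
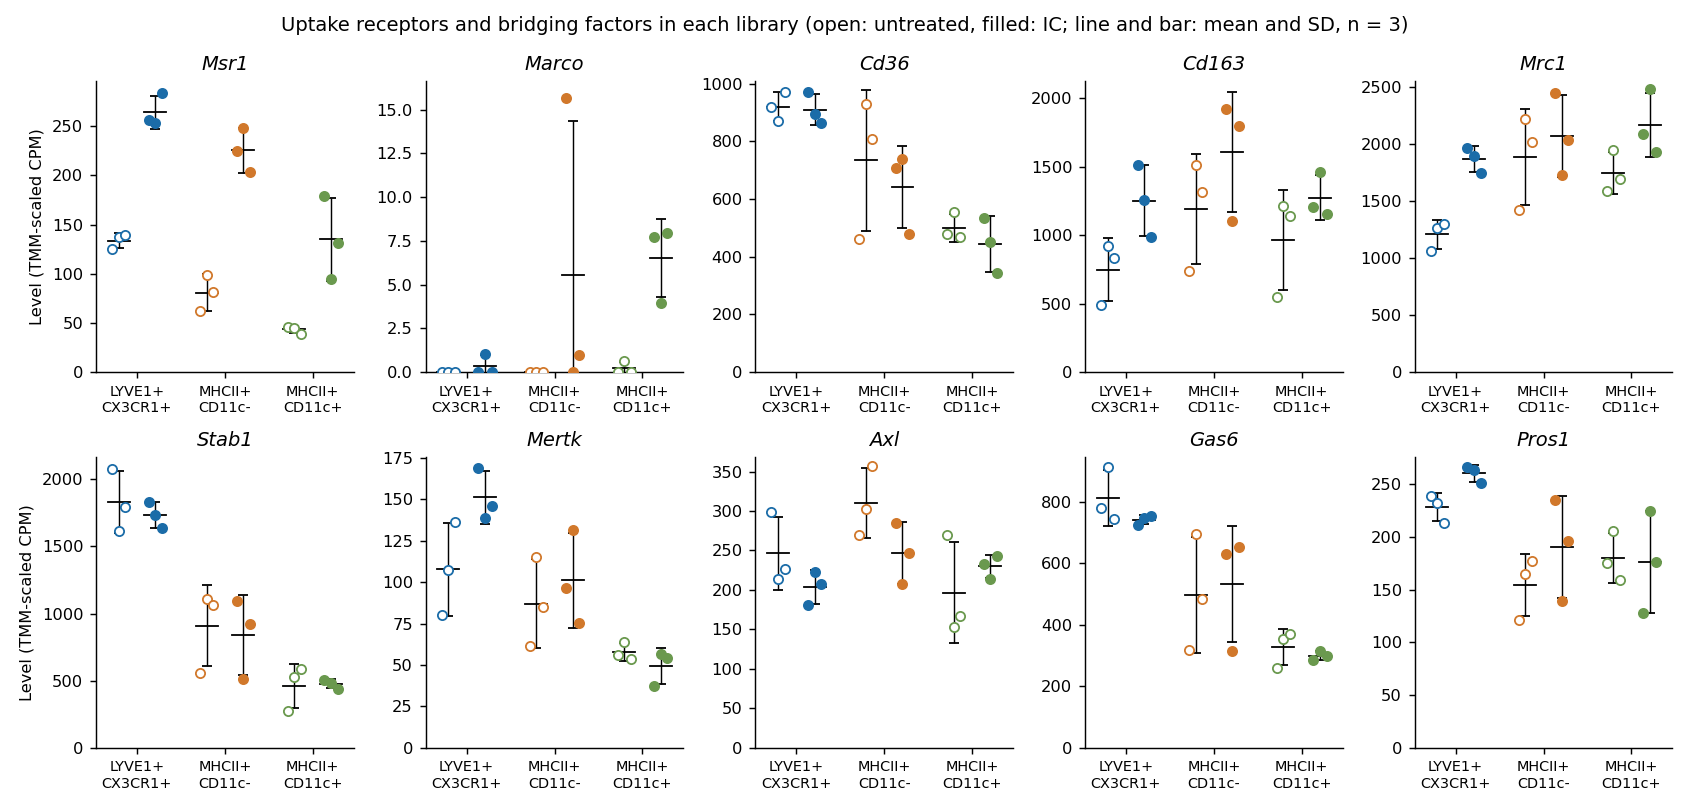
TMM-scaled CPM of the 10 uptake genes in each of the 18 libraries by subset, open points without treatment and filled points with IC, with the mean and SD of 3 libraries; each panel has its own axis from 0. *Msr1* rises with IC in each subset with no overlap, *Stab1* and *Gas6* step down from LYVE1+CX3CR1+ to MHCII+CD11c+ macrophages with and without IC, and *Marco* stays at or near 0 except in MHCII+ libraries with IC.

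At 8 h after IC, *Msr1* had risen in all 3 subsets and was the member called in each of them. The 9 others did not pass in any single subset. EdgeR called 0.246% of all genes tested higher and 0.218% lower in LYVE1+CX3CR1+, 0.55% and 0.512% in MHCII+CD11c-, and 0.483% and 0.19% in MHCII+CD11c+ macrophages. With IC, *Msr1* stood at 257, 253 and 284 CPM in LYVE1+CX3CR1+, 225, 249 and 203 in MHCII+CD11c- and 179, 94.4 and 132 in MHCII+CD11c+ libraries, from raw counts of 455, 480 and 591, of 86, 66 and 203, and of 116, 120 and 216. Every library with IC was above every untreated library of its subset. The log2 fold change was 1.62 (SE 0.21, edgeR adjusted p = 0.000130) in MHCII+CD11c+ and 1.47 (SE 0.22, edgeR adjusted p = 0.00104) in MHCII+CD11c- macrophages, and each was kept in all 6 fits that left out a library. It was 0.98 (SE 0.19, edgeR adjusted p = 0.0152) in LYVE1+CX3CR1+ macrophages, a rise of 1.98-fold. This last call was lost in every one of the 6 fits that left out a library, although the log2 fold change stayed between 0.93 and 1.02, without untreated LYVE1+CX3CR1+ replicate 1 (0.127), untreated LYVE1+CX3CR1+ replicate 2 (0.0664), untreated LYVE1+CX3CR1+ replicate 3 (0.0729), IC LYVE1+CX3CR1+ replicate 1 (0.0652), IC LYVE1+CX3CR1+ replicate 2 (0.05003) and IC LYVE1+CX3CR1+ replicate 3 (0.0531). Without both MHCII+CD11c- libraries under 400000 counts, the rise in MHCII+CD11c- macrophages was 1.35 on the log2 scale (edgeR adjusted p = 0.0192), from a single library with IC that is assumed to vary like the other groups.

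**Figure D4:**
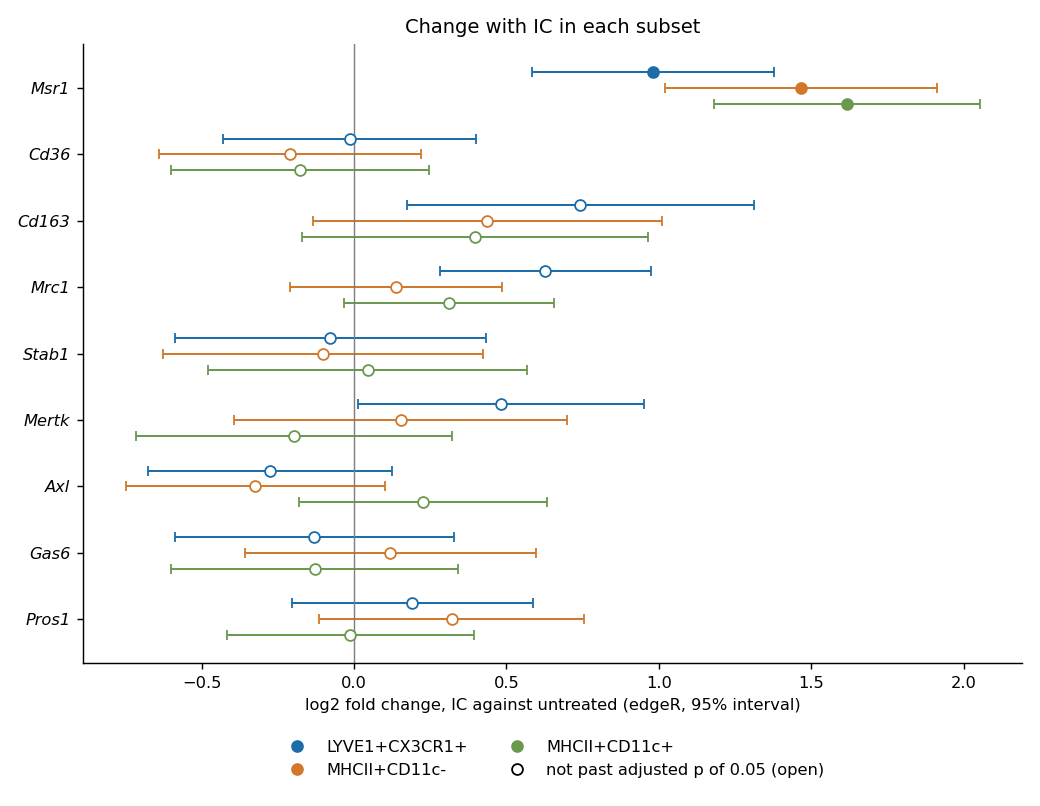
Log2 fold change with IC for 9 uptake genes in each subset from edgeR, with 95% intervals; filled points passed an adjusted p of 0.05 over all genes tested. *Msr1* is the filled gene in all 3 subsets, and the intervals of *Cd163*, *Mrc1* and *Mertk* in LYVE1+CX3CR1+ macrophages lie above 0 although none of these passed.

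The rise of *Msr1* was not shown to differ between subsets. The interaction, the response of the first subset minus that of the second, was -0.49 (95% interval -1.08 to 0.11, edgeR adjusted p = 0.784) for LYVE1+CX3CR1+ against MHCII+CD11c-, -0.63 (95% interval -1.22 to -0.05, edgeR adjusted p = 0.99997) for LYVE1+CX3CR1+ against MHCII+CD11c+, and 0.15 (95% interval -0.47 to 0.76, edgeR adjusted p = 0.954) for MHCII+CD11c+ against MHCII+CD11c- macrophages. No member was called in any of these interactions, where edgeR called 0% of all genes tested in the first and 0.00948% in each of the others, with 688, 474 and 642 genes at an unadjusted p under 0.05. DESeq2 also called 0 members in each.

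Over the mean of the 3 subsets, edgeR called 4 of the 10 members higher with IC (*Msr1*, *Mrc1*, *Cd163* and *Marco*) and none lower, where 3.12% of all genes were higher and 3.09% lower. *Marco* passed the filter on low counts only through libraries with IC, so its call is no support, which leaves *Msr1*, *Mrc1* and *Cd163*. DESeq2 called *Msr1* and *Mrc1* and gave *Marco* no adjusted p. In the same comparison 7 of 11 neutrophil and 5 of 8 monocyte markers were called higher and none lower, with 2 monocyte markers higher in each MHCII+ subset and 0 in LYVE1+CX3CR1+ macrophages. The summed level of the monocyte markers was 3021 to 3682 CPM without treatment and 3481 to 3961 with IC in LYVE1+CX3CR1+, 2731 to 3326 and 3242 to 3797 in MHCII+CD11c-, and 2243 to 2871 and 2418 to 3325 in MHCII+CD11c+ libraries. Most of the 8 markers did not follow these sums across subsets. In untreated LYVE1+CX3CR1+ macrophages 6 were called lower and 1 higher than in MHCII+CD11c- macrophages. Against MHCII+CD11c+ macrophages 6 were lower and 2 higher, and with IC these numbers were the same. *Chil3* and *Ly6c2* had no count in untreated LYVE1+CX3CR1+ libraries. The part of these cells in the changes of the members was not tested. *Msr1* gave 1.36 (SE 0.12, edgeR adjusted p = 1.11e-07), kept in all 18 fits leaving out a library. *Mrc1* gave 0.36 (SE 0.10, edgeR adjusted p = 0.0238). In LYVE1+CX3CR1+ macrophages it stood at 1966, 1894 and 1747 CPM with IC, each above the untreated libraries, with a log2 fold change of 0.63 (SE 0.17, edgeR adjusted p = 0.121) that passed with DESeq2 (0.00495), with no filter on low counts (0.0122) and with only these libraries (0.00103). With IC, *Mrc1* was at 2453, 1732 and 2036 CPM in MHCII+CD11c- and 2089, 2483 and 1931 in MHCII+CD11c+ libraries, ranges that overlapped the untreated ones, with log2 fold changes of 0.14 and 0.31. The mean call of *Mrc1* was lost without untreated MHCII+CD11c- replicate 1 (0.0608), untreated LYVE1+CX3CR1+ replicate 1 (0.0559), untreated MHCII+CD11c+ replicate 3 (0.0510), IC MHCII+CD11c- replicate 1 (0.0634), IC LYVE1+CX3CR1+ replicate 1 (0.0578), IC MHCII+CD11c+ replicate 2 (0.0737) and IC LYVE1+CX3CR1+ replicate 2 (0.0565).

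*Cd163* gave 0.53 (SE 0.16, edgeR adjusted p = 0.0484) over the mean of the subsets. It was at 1511, 1255 and 989.6 CPM with IC in LYVE1+CX3CR1+ libraries, each above the untreated ones, at 1919, 1103 and 1801 in MHCII+CD11c- and at 1206, 1464 and 1155 in MHCII+CD11c+ libraries, where the groups overlapped. The change within LYVE1+CX3CR1+ macrophages was 0.74 (SE 0.28, edgeR adjusted p = 0.352), which passed with no filter (0.00152) and with only these libraries (0.0122). The mean call of *Cd163* was not made by DESeq2 (0.0867) and was lost without untreated MHCII+CD11c- replicate 1 (0.0984), untreated MHCII+CD11c+ replicate 1 (0.0811), untreated LYVE1+CX3CR1+ replicate 1 (0.107), untreated MHCII+CD11c- replicate 3 (0.0623), untreated LYVE1+CX3CR1+ replicate 3 (0.0635), IC MHCII+CD11c- replicate 1 (0.103), IC MHCII+CD11c+ replicate 1 (0.0692), IC LYVE1+CX3CR1+ replicate 1 (0.117), IC MHCII+CD11c+ replicate 2 (0.104), IC LYVE1+CX3CR1+ replicate 2 (0.0893), IC MHCII+CD11c- replicate 3 (0.0848) and IC MHCII+CD11c+ replicate 3 (0.0605). Its low values without treatment were those of the first library of each subset, as were the lowest values of *Mrc1*.

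*Marco* (chromosome 1, 120474538 to 120505024, minus strand), a class A receptor inducible in macrophages, was at the limit of the depth. It had 0, 0 and 0 raw counts in the untreated LYVE1+CX3CR1+ libraries, 0, 0 and 0 in MHCII+CD11c- and 0, 1 and 0 in MHCII+CD11c+ libraries. With IC it had 0, 2 and 0, then 6, 0 and 1, then 5, 5 and 13 counts in the same order of subsets. Counts appeared in all 3 MHCII+CD11c+ libraries with IC, in 2 MHCII+CD11c- libraries with IC and in 1 LYVE1+CX3CR1+ library with IC. Over the group, MHCII+CD11c+ macrophages with IC had 23 counts, or 6.40 CPM of the raw totals (95% exact Poisson interval 4.06 to 9.61), and 1 count without treatment, a ratio of 36.8 with a 95% counting interval of 5.97 to 1515. In MHCII+CD11c- macrophages with IC, 6 of the 7 counts were in the first library, and the group's 4.37 CPM (95% exact Poisson interval 1.76 to 9.01) stand against 0 of 2705569 counts without treatment, which allows up to 1.11 CPM. Without that library, 1 of 1219854 counts was left, or 0.820 CPM (interval 0.0208 to 4.57), so a difference in this subset rests on 1 shallow library. In LYVE1+CX3CR1+ macrophages 0 of 4853398 counts without treatment allows up to 0.618 CPM, the same as 3 counts of that total. *Marco* passed the filter only through libraries with IC, so its calls are no support for the list. The call over the mean of the subsets (edgeR adjusted p = 0.0426) was lost with the replicate number as a block (0.0536), with a surrogate variable (0.0864), without untreated MHCII+CD11c- replicate 1 (0.0572), untreated MHCII+CD11c+ replicate 1 (0.0619), untreated LYVE1+CX3CR1+ replicate 1 (0.0590), untreated MHCII+CD11c- replicate 2 (0.0610), untreated LYVE1+CX3CR1+ replicate 2 (0.0673), untreated MHCII+CD11c- replicate 3 (0.0615), untreated MHCII+CD11c+ replicate 3 (0.0748), untreated LYVE1+CX3CR1+ replicate 3 (0.0683), IC MHCII+CD11c- replicate 1 (0.149), IC MHCII+CD11c+ replicate 1 (0.0641), IC MHCII+CD11c+ replicate 2 (0.0555), IC LYVE1+CX3CR1+ replicate 2 (0.99992) and IC MHCII+CD11c+ replicate 3 (0.0665), and without both shallow libraries (0.154). Within MHCII+CD11c+ macrophages the change did not pass (edgeR adjusted p = 0.189).

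**Figure D5:**
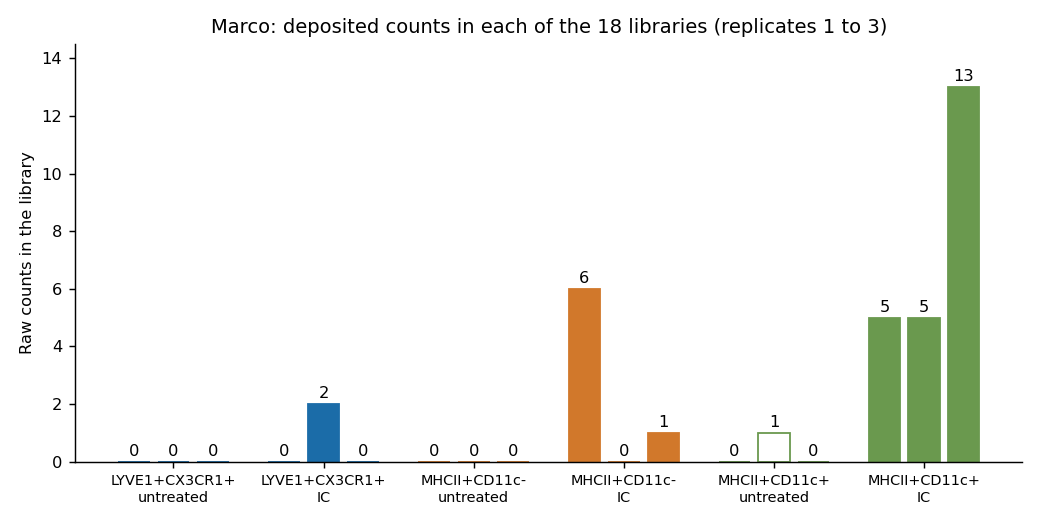
Raw deposited counts of *Marco* in each of the 18 libraries (bars, replicates 1 to 3 of each group; a bar of 0 has no height). All untreated libraries have 0 or 1 count, and the highest value, 13, is in the third MHCII+CD11c+ library with IC.

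The kinases and their ligands, *Stab1* and *Cd36* were not called with IC in any subset or over the mean. Over the mean of the subsets, the log2 fold changes were -0.05 for *Stab1*, -0.13 for *Cd36*, 0.15 for *Mertk*, -0.12 for *Axl*, -0.05 for *Gas6* and 0.17 for *Pros1*, with edgeR adjusted p between 0.479 and 0.922. The 95% intervals of these 6 values reached from -0.38 to 0.44. With IC, *Mertk* stood at 169, 139 and 146 CPM in LYVE1+CX3CR1+, 96.7, 132 and 75.1 in MHCII+CD11c- and 37.0, 56.6 and 54.2 in MHCII+CD11c+ libraries. Its LYVE1+CX3CR1+ libraries with IC were all above the untreated ones, and the change of 0.48 (SE 0.23, edgeR adjusted p = 0.540) did not pass. *Axl* was at 180.4, 223 and 207 CPM in LYVE1+CX3CR1+, 285, 207 and 247 in MHCII+CD11c- and 233, 214 and 243 in MHCII+CD11c+ libraries with IC, overlapping the untreated libraries in each subset.

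With IC, the ligands and *Stab1* kept to narrow ranges in LYVE1+CX3CR1+ macrophages. *Gas6* was at 725, 749 and 753 CPM in LYVE1+CX3CR1+, 630.2, 316 and 652 in MHCII+CD11c- and 287, 315 and 299 in MHCII+CD11c+ libraries. *Pros1* was at 267, 264 and 251 CPM in LYVE1+CX3CR1+, 235, 139 and 196 in MHCII+CD11c- and 128, 225 and 177 in MHCII+CD11c+ libraries. *Stab1* was at 1829, 1736 and 1637 CPM in LYVE1+CX3CR1+, 1093, 512 and 919 in MHCII+CD11c- and 506, 484 and 441 in MHCII+CD11c+ libraries. The lowest MHCII+CD11c- value of all 3 genes was in the second library with IC, the shallowest of the series. *Cd36* stood at 971, 895 and 863 CPM in LYVE1+CX3CR1+, 706, 738 and 479.7 in MHCII+CD11c- and 535, 451 and 344 in MHCII+CD11c+ libraries, with each LYVE1+CX3CR1+ library above each MHCII+ library.

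Among libraries with IC, the subsets were compared again. LYVE1+CX3CR1+ against MHCII+CD11c+ macrophages had 7 members called, where 19.7% of all genes were called in either direction. The 7 include *Marco*, whose call is no support, since it passed the filter only through libraries with IC. Higher were *Stab1* at 1.86 (SE 0.26, edgeR adjusted p = 5.89e-06), *Mertk* at 1.58 (SE 0.25, edgeR adjusted p = 2.66e-05), *Gas6* at 1.30 (SE 0.23, edgeR adjusted p = 0.000135), *Cd36* at 1.04 (SE 0.21, edgeR adjusted p = 0.000491) and *Msr1* at 0.99 (SE 0.20, edgeR adjusted p = 0.000511), each kept in all 6 fits leaving out a library. *Pros1* was also higher, at 0.55 (SE 0.20, edgeR adjusted p = 0.0496), lost without IC MHCII+CD11c+ replicate 1 (0.253), IC LYVE1+CX3CR1+ replicate 1 (0.0983), IC LYVE1+CX3CR1+ replicate 2 (0.0987), IC MHCII+CD11c+ replicate 3 (0.0999) and IC LYVE1+CX3CR1+ replicate 3 (0.0854), with the replicate number within treatment as a block (0.0533) and with a surrogate variable (0.122). *Marco* was lower, with 2 against 23 counts over the groups, so that MHCII+CD11c+ macrophages had 18.4 times the share (95% counting interval 4.55 to 161), and its call (edgeR adjusted p = 0.0382) was lost with DESeq2 (0.109), no filter (0.108), the replicate number within treatment as a block (0.0622) or a surrogate variable (0.0762), and without IC MHCII+CD11c+ replicate 1 (0.0894), IC LYVE1+CX3CR1+ replicate 1 (0.153), IC MHCII+CD11c+ replicate 2 (0.0617), IC MHCII+CD11c+ replicate 3 (0.130) and IC LYVE1+CX3CR1+ replicate 3 (0.152). *Mrc1*, lower in LYVE1+CX3CR1+ macrophages without treatment, gave -0.21 (SE 0.17, edgeR adjusted p = 0.436) with IC, and the groups overlapped. The difference between the responses did not pass (edgeR adjusted p = 0.99997).

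LYVE1+CX3CR1+ against MHCII+CD11c- macrophages with IC had 1 member called, *Stab1*, where 9.77% of all genes were called. It gave 1.03 (SE 0.26, edgeR adjusted p = 0.00936), kept in all 6 fits leaving out a library and lost with a surrogate variable (0.302) and without both libraries under 400000 counts (0.0909), which left a single MHCII+CD11c- library with IC. *Msr1*, *Gas6* and *Mrc1*, called between these subsets without treatment, gave 0.24, 0.46 and -0.15 with IC, with edgeR adjusted p of 0.508, 0.233 and 0.653. *Cd36* at 0.52 (SE 0.21, edgeR adjusted p = 0.119) did not pass, with no overlap between the groups. It passed with no filter (0.0191), the replicate number within treatment as a block (0.04999) and a surrogate variable (0.0207), the fit that lost *Stab1*. Without both libraries under 400000 counts its log2 fold change was 0.96. That fit also rests on a single MHCII+CD11c- library with IC, so only the size is given for *Cd36*. *Mertk* at 0.64 (SE 0.25, edgeR adjusted p = 0.111) passed without IC MHCII+CD11c- replicate 2 (0.0374). Between the MHCII+ subsets with IC, *Gas6* at -0.85 (SE 0.23, edgeR adjusted p = 0.0483) and *Msr1* at -0.75 (SE 0.21, edgeR adjusted p = 0.0485) were lower in MHCII+CD11c+ macrophages, where 2.84% of all genes were called. The call of *Gas6* was lost without IC MHCII+CD11c- replicate 1 (0.140), IC MHCII+CD11c+ replicate 1 (0.157), IC MHCII+CD11c+ replicate 2 (0.123), IC MHCII+CD11c- replicate 3 (0.179) and IC MHCII+CD11c+ replicate 3 (0.116), and in a fit to only these libraries (0.152). The call of *Msr1* was lost without IC MHCII+CD11c- replicate 1 (0.0818), IC MHCII+CD11c- replicate 2 (0.0964), IC MHCII+CD11c+ replicate 2 (0.248), IC MHCII+CD11c- replicate 3 (0.0654) and IC MHCII+CD11c+ replicate 3 (0.117), with the replicate number as a block (0.0578), in a fit to only these libraries (0.250), with a surrogate variable (0.288), and without both shallow libraries (0.287). *Mertk* at -0.94 (SE 0.27, edgeR adjusted p = 0.0615) and *Stab1* at -0.83 (SE 0.26, edgeR adjusted p = 0.0859) did not pass, with no overlap between the groups. That of *Mertk* passed with DESeq2 (0.0248), no filter (0.0311), the replicate number as a block (0.0460) or within treatment (0.0476), and without IC MHCII+CD11c- replicate 3 (0.0392). That of *Stab1* passed with DESeq2 (0.0400), no filter (0.000371) and without IC MHCII+CD11c- replicate 2 (0.0109).

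Other genes of the same pathways were counted from 3 lists. Of 30 other scavenger receptors and related proteins, 15 passed the filter. In untreated LYVE1+CX3CR1+ macrophages 3 were higher and 2 lower than in MHCII+CD11c-, and 5 higher and 3 lower than in MHCII+CD11c+ macrophages. The median log2 fold changes were 0.06 and -0.11, against -0.02 over all genes in both, where 4.32% and 9.48% of all genes were higher and 7.12% and 12.4% lower. *Colec12*, a collectin-type scavenger receptor, gave 1.36 (SE 0.29, edgeR adjusted p = 0.00238) and 1.90 (SE 0.29, edgeR adjusted p = 1.66e-05). *Lrp1*, a large receptor for lipoproteins and protease complexes, gave 0.85 (SE 0.25, edgeR adjusted p = 0.0225) and 1.29 (SE 0.25, edgeR adjusted p = 0.000328). *Olr1*, the lectin-like receptor for oxidized LDL, gave 1.31 (SE 0.34, edgeR adjusted p = 0.00953) and 1.40 (SE 0.32, edgeR adjusted p = 0.00158). *Lgals3*, a galectin, ran the other way, at -0.65 (SE 0.18, edgeR adjusted p = 0.0188) and -1.50 (SE 0.18, edgeR adjusted p = 5.97e-07). The endocytic receptor *Ly75* was the other gene called lower against MHCII+CD11c- macrophages (edgeR adjusted p = 0.0184), named after its value was seen. With IC, no gene of this list was called in the MHCII+ subsets. Over the mean of the subsets 2 were higher and 2 lower, where 3.12% and 3.09% of all genes were, with a median of 0.12 against -0.01. *Olr1* was higher, at 0.74 (SE 0.19, edgeR adjusted p = 0.0195), as was the lysosomal glycoprotein *Cd68*, at 0.38 (SE 0.11, edgeR adjusted p = 0.0332), and the HDL receptor *Scarb1* was lower, at -0.89 (SE 0.25, edgeR adjusted p = 0.0328). The mean of *Olr1* was 90.6 ± 17.4 CPM without treatment and 187 ± 81.4 with IC in LYVE1+CX3CR1+ macrophages. It was 36.4 ± 7.44 and 88.9 ± 15.5 in MHCII+CD11c-, but 34.5 ± 16.8 and 31.9 ± 8.21 in MHCII+CD11c+ macrophages.

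Of 70 engulfment genes, 60 passed the filter. They comprised recognition receptors, bridging molecules, cytoskeletal adaptors and lipid exporters. In untreated LYVE1+CX3CR1+ macrophages 13 were higher and 7 lower than in MHCII+CD11c- macrophages, and 20 higher and 12 lower than in MHCII+CD11c+ macrophages, with medians of 0.16 and 0.18 against -0.02 over all genes in both. Of all genes tested, 4.32% were higher and 7.12% lower in the first of these comparisons, and 9.48% and 12.4% in the second. *Itgb5*, the beta chain of an integrin that binds apoptotic cells through *Mfge8*, gave 2.02 (SE 0.24, edgeR adjusted p = 2.04e-06) and 4.26 (SE 0.27, edgeR adjusted p = 7.99e-12). Against MHCII+CD11c- macrophages the phosphatidylserine receptor *Havcr2* gave 1.73 (SE 0.34, edgeR adjusted p = 0.000983) and the transglutaminase *Tgm2* 1.71 (SE 0.29, edgeR adjusted p = 0.000223). The lipid receptor *Trem2* gave 2.66 (SE 0.23, edgeR adjusted p = 2.58e-09) against MHCII+CD11c+ macrophages. *Gpr132*, a receptor for lysophospholipid signals, was lower, at -2.12 (SE 0.37, edgeR adjusted p = 0.000269) and -3.53 (SE 0.34, edgeR adjusted p = 1.72e-08). *Pecam1*, with at most 3 counts in any untreated LYVE1+CX3CR1+ library, gave -4.35 (SE 0.99, edgeR adjusted p = 0.00398) and -4.07 (SE 0.97, edgeR adjusted p = 0.00265). *Slc2a1* gave -1.35 (edgeR adjusted p = 0.0364) against MHCII+CD11c- and *Slc7a11* -3.19 (edgeR adjusted p = 0.00744) against MHCII+CD11c+ macrophages. *Cx3cr1* is in this list too, and the sort used its protein.

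With IC, 2 of the 60 engulfment genes were higher in LYVE1+CX3CR1+ macrophages, 1 in the MHCII+CD11c- and 2 in the MHCII+CD11c+ subset, and none was lower, where 0.246%, 0.55% and 0.483% of all genes tested were higher, and the medians were 0.05, 0.10 and 0.13 against -0.02 to -0.01 over all genes. Those in LYVE1+CX3CR1+ macrophages were the cholesterol exporter *Abcg1* at 1.01 (SE 0.22, edgeR adjusted p = 0.0266) and the mitochondrial carrier *Ucp2* at 0.79 (SE 0.18, edgeR adjusted p = 0.0421). The gene in MHCII+CD11c- macrophages was *Tgm2* at 1.37 (SE 0.30, edgeR adjusted p = 0.0195), and those in MHCII+CD11c+ macrophages were *Itgb5* at 1.29 (SE 0.26, edgeR adjusted p = 0.0152) and, named after its value was seen, *Cx3cr1* at 0.85 (edgeR adjusted p = 0.0471). Over the mean of the subsets 8 were higher and 1 lower, where 3.12% of all genes were higher and 3.09% lower, with a median of 0.11 against -0.01 over all genes. *Havcr2* gave 1.02 (SE 0.20, edgeR adjusted p = 0.00211) and the matrix glycoprotein *Thbs1*, a bridge from dying cells to *Cd36*, gave 1.57 (SE 0.38, edgeR adjusted p = 0.0126). The mean of *Thbs1* was 24.3 ± 33.1 CPM without treatment and 23.2 ± 21.4 with IC in LYVE1+CX3CR1+ macrophages. It was 107 ± 35.3 and 513 ± 330 in MHCII+CD11c-, and 66.3 ± 9.03 and 373 ± 245 in MHCII+CD11c+ macrophages.

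Of 51 regulators of the members, 50 passed the filter. They were transcription factors, shedding proteases, ligands and vitamin K enzymes. Without treatment 2 were higher and 2 lower in LYVE1+CX3CR1+ than in MHCII+CD11c- macrophages, and 12 higher and 7 lower than in MHCII+CD11c+ macrophages, beside 4.32% and 7.12%, then 9.48% and 12.4%, of all genes. The medians were 0.09 and 0.31, against -0.02 over all genes in both. Against MHCII+CD11c- macrophages the higher ones were the protease *Adam9* at 0.90 (SE 0.17, edgeR adjusted p = 0.000941) and the interleukin 10 receptor chain *Il10rb* at 0.72 (SE 0.19, edgeR adjusted p = 0.0139). The factor *Maf* gave 1.19 (SE 0.17, edgeR adjusted p = 5.66e-06) against MHCII+CD11c+ macrophages, and the oxysterol receptor *Nr1h3* gave 1.86 (SE 0.49, edgeR adjusted p = 0.00572). *Irf4* was lower, at -1.06 (SE 0.22, edgeR adjusted p = 0.00173) and -1.62 (SE 0.21, edgeR adjusted p = 2.04e-06). *Hp*, which encodes haptoglobin, the carrier that brings haemoglobin to *Cd163*, and is also made by neutrophils, was lower too (edgeR adjusted p = 2.33e-05 and 0.000731). It had 0 counts in untreated LYVE1+CX3CR1+ libraries, 28.3 ± 13.9 CPM in MHCII+CD11c- and 8.06 ± 6.46 in MHCII+CD11c+ libraries. With IC, 2 regulators were higher in the MHCII+CD11c- and 4 in the MHCII+CD11c+ subset, where 0.55% and 0.483% of all genes were. *Nr1h3* rose in MHCII+CD11c- macrophages by 2.30 (SE 0.50, edgeR adjusted p = 0.0188) and in MHCII+CD11c+ macrophages by 2.31 (SE 0.49, edgeR adjusted p = 0.0212). *Mmp14*, a membrane protease, rose by 2.32 (SE 0.56, edgeR adjusted p = 0.0381) and 2.78 (SE 0.58, edgeR adjusted p = 0.0181) in the same subsets. Over the mean of the subsets 6 regulators were higher and 6 lower, where 3.12% and 3.09% of all genes were, with a median of -0.03 against -0.01 over all genes. Among the higher were *Mmp14* at 1.96 (SE 0.31, edgeR adjusted p = 0.000273) and *Nr1h3* at 1.85 (SE 0.27, edgeR adjusted p = 9.88e-05). In LYVE1+CX3CR1+ libraries *Nr1h3* was at 24.9, 22.6 and 31.2 CPM without treatment and 52.4, 55.9 and 43.2 with IC, a change that was not called. *Hp* was also higher over the mean, at 3.23 (SE 0.58, edgeR adjusted p = 0.00110). In MHCII+CD11c- libraries it was at 44.2, 18.3 and 22.5 CPM without treatment and 96.7, 56.5 and 141 with IC, with no overlap, and was not called. In MHCII+CD11c+ macrophages *Hp* gave 3.42 (SE 0.51, edgeR adjusted p = 0.000999). The haem oxygenase *Hmox1* was also called there, at 0.70 (edgeR adjusted p = 0.0471), named after its value was seen. Of the 11 neutrophil markers, 4 were called higher in the same comparison, and their part in the change of *Hp* was not tested.

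Over the 18 libraries, the log2 CPM of the members fell into a few patterns, described by Pearson's r with no test, since libraries share subset, treatment and depth. *Stab1* and *Gas6* were most alike among the members (r = 0.96), and each was the gene most like the other among 8835 other genes whose log2 CPM averaged 3 or more. *Cd36* followed *Stab1* (r = 0.85) and *Mertk* (0.83). *Cd163* and *Mrc1* were alike (0.85), and *Mrc1* and *Stab1* ran apart (-0.31). *Axl* followed no other member, with r between -0.17 and 0.13. The genes most like *Msr1* were *Ms4a6d* (0.91), *Nr1h3* and *Rap1b* (each 0.90). Those most like *Mertk* were *Ninj1* (0.94), *Slc6a8* and *Bhlhe41* (each 0.91), the gene most like *Cd36* was *Rasgrp3* (0.90), and the gene most like *Pros1* was *Fam89b* (0.86). The gene most like *Axl* was *Dse* (0.70), and those most like *Cd163* and *Mrc1* included *Rad9a* (0.81 and 0.87).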

How the data were processed

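Bulk RNA-seq counts of 18 sorted macrophage libraries (6 groups of 3) were analysed. The authors trimmed reads with Trim Galore, checked them with FastQC, aligned them to mm10 with HISAT2 and counted reads per gene with featureCounts. The deposited values are raw counts. The annotation, strand setting and handling of multi-mapped reads are not given in the sources used here, so reads of overlapping genes cannot be told apart. Only the per-library count files were used, since the combined table holds the same columns.

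Counts were scaled by TMM and tested with edgeR 4.0.16 in R 4.3.3 (glmQLFit and glmQLFTest) in 1 model of 6 group means, after filterByExpr (minimum count 10, minimum total 15) left 10550 of 24421 genes. Benjamini-Hochberg adjustment ran over all genes tested, with a threshold of 0.05. CPM are TMM-scaled, and log2 CPM used a prior count of 2. The study's methods name DESeq2 and sva. Alternatives were DESeq2 1.42.0, its size factors in edgeR, no filter, a fit to just those libraries that are compared, blocks for replicate number over all libraries or within treatment, a surrogate variable (1, from sva 3.50.0), each library left out, and, chosen after seeing the data, no libraries under 400000 counts. The code was tested on simulated data. Gene positions and transcript lengths are from the GENCODE annotation of GRCm38. Counting intervals and floors cover counting error only.

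The members and lists were chosen with earlier results of these data known. Named from the lists were at most the 3 largest and 3 smallest changes per comparison among called genes whose log2 CPM averaged 3 or more and whose groups stood apart. For likeness, the 3 genes with the highest Pearson r to each member were taken, and some are named. Replicates of a group differed by more than sampling noise in every pair (chi-square per gene of at least 3.42). The result of 1 listed gene is not reported here.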

Additional observations from a re-analysis of the deposited data

How the results depend on the processing

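Counted over all comparisons and settings, the number of members called kept within 1.5 times of its main value in 152 cases and moved further in 48. The 152 include the interactions, where no setting called a member. For MHCII+CD11c+ against MHCII+CD11c- macrophages without treatment it was 2, and 4 with no filter, 1 with only the libraries compared and 1 with a surrogate variable. With IC in LYVE1+CX3CR1+ macrophages it was 1, and 2 with DESeq2, 3 with no filter and 3 with only the libraries compared. Over the mean of the subsets it was 4, counting *Marco*, and 2 with DESeq2, which gave *Marco* no adjusted p. Among libraries with IC, LYVE1+CX3CR1+ against MHCII+CD11c- macrophages had 1, and 2 with no filter and 2 with the replicate number within treatment as a block. With a surrogate variable *Cd36* was called there and *Stab1* was not. MHCII+CD11c+ against MHCII+CD11c- macrophages with IC had 2, and 4 with DESeq2, 4 with no filter, 0 with only the libraries compared, 1 with a surrogate variable and 1 without both libraries under 400000 counts. Leaving out each library in turn gave 1 to 3, 5 to 7 and 0 to 4 members in the untreated comparisons (LYVE1+CX3CR1+ against MHCII+CD11c-, against MHCII+CD11c+, and between the MHCII+ subsets), and 0 with IC in LYVE1+CX3CR1+, 1 in each MHCII+ subset and 1 to 4 over their mean. It gave 0 in each interaction, and 1 to 2, 5 to 6 and 0 to 2 in the same subset comparisons with IC. The causes were not tested.

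The replicate number as a block gave 4, 6 and 3 members in the untreated comparisons, 1, 1 and 1 with IC, 3 over the mean, 0 in the interactions and 1, 7 and 2 among libraries with IC, and the number within treatment as a block gave 5, 6 and 3, then 2, 5 and 3. The numbers were not shown to pair the libraries, and it was not settled whether same-numbered libraries share mice. Correlations of same-numbered libraries of 1 treatment ran from -0.07 to 0.18, with 1 of 18 over 0.1, and those with IC ran from 0.02 to 0.09. Libraries of 1 treatment with other numbers ran from -0.14 to 0.09. If same-numbered libraries share mice, the p-values over the mean of the subsets treat linked libraries as independent.

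Uncalled members changed sign in some settings. With IC the log2 fold change of *Cd36* in LYVE1+CX3CR1+ macrophages became 0.0065 with no filter and 0.0352 with a surrogate variable. Without both libraries under 400000 counts, that of *Stab1* in MHCII+CD11c- macrophages became 0.0285 and that of *Mertk* -0.20. In MHCII+CD11c+ macrophages, *Gas6* became 0.0393 and *Pros1* 0.0832 with a surrogate variable, and *Pros1* 0.0042 with only the libraries compared. Leaving out each library gave -0.29 to 0.0230 for *Mrc1* between the untreated MHCII+ subsets. With IC it gave -0.15 to 0.0237 for *Stab1* and -0.0531 to 0.0342 for *Cd36* in LYVE1+CX3CR1+ macrophages, and -0.0421 to 0.27 for *Mrc1*, -0.36 to 0.14 for *Stab1*, -0.0562 to 0.39 for *Mertk* and -0.12 to 0.43 for *Gas6* in MHCII+CD11c- macrophages. In MHCII+CD11c+ macrophages it gave -0.22 to 0.25 for *Stab1* and -0.24 to 0.16 for *Pros1*. The interaction of *Msr1* between the MHCII+ subsets gave -0.0754 to 0.35.

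There were 3 libraries a group and as few as 245903 counts in a library. Over the untreated group, 3 counts correspond to 0.618 CPM in LYVE1+CX3CR1+ and 1.11 in MHCII+CD11c- macrophages, and 0 counts there do not exclude levels of *Marco* below this.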
